A study of Mus musculus with 7 samples.

Results

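Platelet-derived growth factors (PDGF) and vascular endothelial growth factors (VEGF) were followed at the transcript level in bleomycin-treated mouse skin that carried or lacked OX40L. The 10 genes were 4 PDGF ligands (Pdgfa, Pdgfb, Pdgfc and Pdgfd), the 2 PDGF receptors (Pdgfra and Pdgfrb), 3 VEGF ligands (Vegfa, Vegfb and Vegfc) and the VEGF receptor Flt1. They were taken by the platform's gene symbols, with 1 probe set for each, from 23185 genes on the arrays. All 10 were found. In that order their Entrez numbers, which name the probe sets, were 18590, 18591, 54635 and 71785 for the PDGF ligands, 18595 and 18596 for the PDGF receptors, 22339, 22340 and 22341 for the VEGF ligands and 14254 for Flt1.

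The skin was lesional skin of male C57BL/6 mice aged 9 weeks that had received bleomycin injections over 3 weeks. There were 4 arrays from ox40l-/- mice, called knockout here, and 3 from ox40l+/+ mice, called wild type. OX40L is encoded by Tnfsf4 and is a costimulatory ligand for OX40 on activated T cells. Repeated bleomycin injection is a common model of skin fibrosis, and the comparison addresses how OX40L genotype changes the skin under that treatment. All groups carried the bleomycin treatment, so its own effect on these genes was not measured. The labels do not give how the knockout was made, nor whether each sample is a different animal. The p-values therefore describe only how these 7 samples vary, and some of that variation may be technical.

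PDGF ligands act as dimers on the tyrosine kinase receptors PDGFRA and PDGFRB, which drive the growth and migration of fibroblasts, pericytes and smooth muscle cells. In skin, PDGFRA marks dermal fibroblasts and PDGFRB marks pericytes, while keratinocytes and endothelial cells are known sources of PDGF-A and PDGF-B. VEGF-A drives growth and permeability of blood vessels through KDR, FLT1 binds VEGF-A, VEGF-B and placental growth factor and can act as a decoy, and VEGF-C drives lymphatic growth through FLT4.

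Upstream sequences are shown for 3 members: Pdgfra and Vegfb, which had the largest differences in each direction, and Flt1, the VEGF receptor of the group. RefSeq windows (build GRCm38.p6) were matched by symbol for 8 of the 10 genes, with 10 windows in all, because Pdgfa and Vegfa each have more than 1 start. The 250 bases before the start are printed 5′ to 3′ on the gene's strand. The Pdgfra window is chr5:75152001-75152250 on the plus strand, the Vegfb window chr19:6987652-6987901 on the minus strand and the Flt1 window chr5:147726012-147726261 on the minus strand. Capitals mark matches, on either strand, to the GC box GGGCGG, the TATA box TATAAA, the hypoxia core ACGTG and the cyclic AMP element TGACGTCA.
Pdgfra: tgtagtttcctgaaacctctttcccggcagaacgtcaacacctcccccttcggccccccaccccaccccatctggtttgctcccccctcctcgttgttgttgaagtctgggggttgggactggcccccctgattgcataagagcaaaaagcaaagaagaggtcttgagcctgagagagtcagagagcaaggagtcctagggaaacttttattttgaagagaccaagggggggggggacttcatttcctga
Vegfb: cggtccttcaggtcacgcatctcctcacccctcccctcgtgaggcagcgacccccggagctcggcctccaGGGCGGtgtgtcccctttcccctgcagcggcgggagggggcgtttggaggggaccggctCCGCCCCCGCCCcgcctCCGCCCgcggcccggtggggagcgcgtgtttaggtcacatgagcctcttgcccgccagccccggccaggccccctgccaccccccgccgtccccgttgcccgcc
Flt1: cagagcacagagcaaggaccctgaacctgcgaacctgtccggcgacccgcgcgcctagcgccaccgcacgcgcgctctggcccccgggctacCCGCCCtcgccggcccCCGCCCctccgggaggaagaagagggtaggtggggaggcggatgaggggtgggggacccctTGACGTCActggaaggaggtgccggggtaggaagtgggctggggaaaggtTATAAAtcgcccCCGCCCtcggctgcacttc
The Pdgfra window held no match to any of these motifs and had a GC content of 54.4%. The Vegfb window, with a GC content of 76.4%, held 4 GC boxes. The Flt1 window held 3 GC boxes, a TATA box that begins 31 bases before the start and a cyclic AMP element that begins 81 bases before it. Over all 32851 windows of this length in the table, 32.7% held a GC box, 12.4% a TATA box, 16.6% a hypoxia core and 1.55% a cyclic AMP element. Of the 10 windows of the members, 7 held a GC box, 2 a TATA box, 1 a hypoxia core and 1 a cyclic AMP element. The hypoxia core lay in the Vegfa window chr17:46025164-46025413 on the minus strand, which precedes the more downstream start. The Vegfa window of the more upstream start, chr17:46032378-46032627, held no hypoxia core. These matches describe letters only, and no match was read as a binding site.

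The values are log2 expression values after robust multi-array averaging (RMA). Wild type replicates 1 and 3 stood apart from the other 5 arrays. Pearson's r across probe sets was 0.956 to 0.969 among those 5, and 0.761 to 0.914 in pairs that held either of the former. Values spread most widely on wild type replicate 1 (SD over probe sets 1.72) and least on wild type replicate 3 (1.22), with 1.38 to 1.48 elsewhere. Tnfsf4 was at 2.93 ± 0.63 (SD, n = 3) in wild type and 2.95 ± 0.27 (SD, n = 4) in knockout, and where its probe set lies relative to the deleted part is not known here, so it checks nothing about the labels. The epidermal keratins Krt5 and Krt10, which mark skin, were at 6.09 or above and at 8.14 or above on every array, while the median of all values was 3.60.

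None of the 10 genes differed between genotypes in limma at an adjusted p under 0.05, where 0.00431% of the 23185 genes passed. That was 1 gene, Hbb-b1, a beta globin of red blood cells, which was higher in knockout by 3.28 log2 units (SE 0.24; limma adjusted p = 0.0468) and is named after its value was seen. No gene passed when any 1 of the 7 arrays was left out. None of the 10 members passed an unadjusted p under 0.05 either, against 1.88% of all genes. Of the members, 5 were higher and 5 lower in knockout, with a median difference of -0.01 on the log2 scale beside 0.01 over all genes. The median size of a difference was 0.12 in the members and 0.15 over all genes. The largest was -0.31, in Pdgfra. The adjusted p was 0.9995 for every member (limma), so it is not repeated below. Each member's difference is given below in log2 units, followed by its SE and 95% interval in limma and by a two-sided exact permutation p, an alternative to the limma test. The permutation p comes from the 35 ways to divide 7 arrays into 4 and 3 and cannot go below 0.0286.

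**Figure D1:**
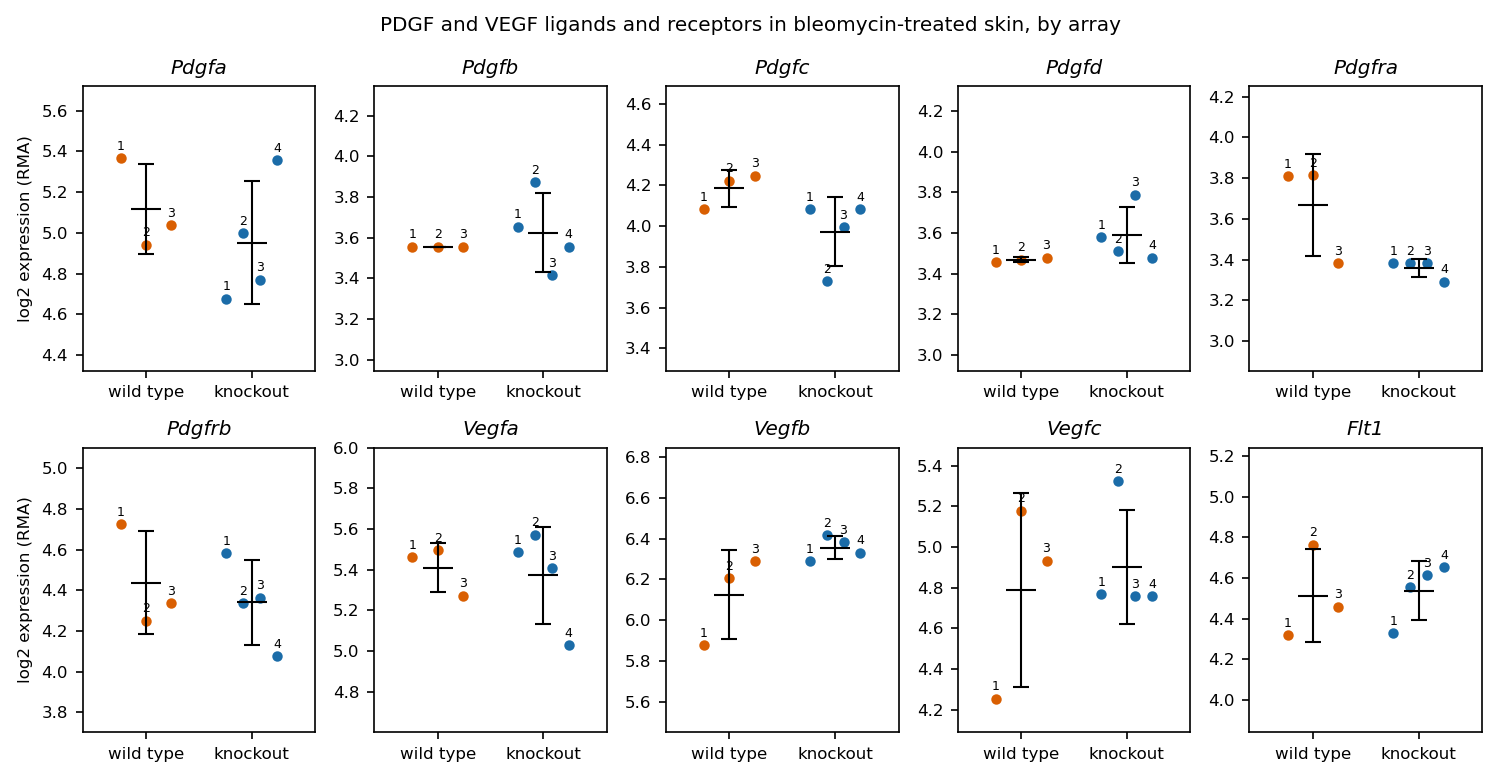
Log2 expression (RMA) of the 10 genes on the 3 wild type arrays (orange) and the 4 knockout arrays (blue), numbered by replicate, with the mean and SD of each genotype as black bars. Each panel spans the same height of log2 units, and no panel shows genotypes fully apart.

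Of the members, 0 had genotypes that did not overlap, which was the case for 1.91% of all genes. In 4 members (Pdgfc, Pdgfd, Pdgfra and Vegfb) the genotypes met at exactly 1 shared value without crossing, and 8.33% of all genes either met in this way or did not overlap. The same value stood on at least 2 arrays in 7 of the 10 members and in 54.3% of all genes.

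Among the PDGF ligands, Pdgfa and Pdgfc had lower means in knockout and Pdgfb and Pdgfd higher means, and none passed the test. Pdgfa, the ligand of PDGFRA made by epithelia, was at 5.37, 4.94 and 5.04 on wild type replicates 1 to 3 and at 4.68, 4.998, 4.77 and 5.36 on knockout replicates 1 to 4. Knockout replicates 1 and 3 lay below every wild type array, but knockout replicate 4 was as high as the highest of them. The difference was -0.17 (SE 0.21; interval -0.65 to 0.32; exact permutation p = 0.457), a fold of 0.892 with an interval of 0.638 to 1.25. It was -0.04 without wild type replicate 1 and -0.30 without knockout replicate 4.

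Pdgfb, the ligand that recruits pericytes to vessels, was at 3.56 on all 3 wild type arrays and at 3.65, 3.87, 3.42 and 3.56 in knockout. The 3 wild type values and that of knockout replicate 4 were identical, so the wild type SD was 0. The knockout arrays lay on both sides of this value. The difference was 0.07 (SE 0.15, interval -0.28 to 0.41; exact permutation p = 0.714), and it was -0.0138 without knockout replicate 2.

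Pdgfc, a ligand that is activated by proteolysis, was at 4.08, 4.22 and 4.25 in wild type and at 4.08, 3.73, 4.00 and 4.08 in knockout. Every knockout array was at or below the lowest wild type array, and wild type replicate 1 shared its value with knockout replicates 1 and 4. The difference was -0.21 (SE 0.14, interval -0.55 to 0.13; exact permutation p = 0.171), a fold of 0.863. It was -0.13 without knockout replicate 2.

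Pdgfd, the other ligand activated by proteolysis, was at 3.46, 3.47 and 3.48 in wild type and at 3.58, 3.51, 3.79 and 3.48 in knockout. Every knockout array was at or above the highest wild type array, and wild type replicate 3 and knockout replicate 4 shared a value. The wild type arrays differed little among themselves (SD 0.01, n = 3), and knockout replicate 3 was the highest. The difference was 0.12 (SE 0.13, interval -0.19 to 0.43; exact permutation p = 0.200), and it was 0.055 without knockout replicate 3.

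The largest difference was in Pdgfra, the PDGF receptor of dermal fibroblasts. Its transcript was at 3.81, 3.81 and 3.38 in wild type and 3.38, 3.38, 3.38 and 3.29 in knockout. Wild type replicates 1 and 2 were high, while wild type replicate 3 had exactly the value of knockout replicates 1 to 3. The means were 3.67 ± 0.25 (SD, n = 3) and 3.36 ± 0.04 (SD, n = 4), and the difference was -0.31 (SE 0.15, interval -0.67 to 0.05; exact permutation p = 0.114). The fold was 0.807, with an interval of 0.630 to 1.03. Without wild type replicate 3 the difference was -0.45 (limma adjusted p = 0.372), with an unadjusted p under 0.05, as in 2786 of the 23185 genes in that fit. The Pdgfra difference was -0.24 without wild type replicate 1 or 2.

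Pdgfrb, the receptor of pericytes and smooth muscle cells, was at 4.73, 4.25 and 4.34 in wild type and at 4.58, 4.34, 4.36 and 4.08 in knockout. Wild type replicate 1 was the highest and knockout replicate 4 the lowest, and the other 5 arrays were mixed. The difference was -0.10 (SE 0.18, interval -0.53 to 0.33; exact permutation p = 0.600). It turned to 0.05 without wild type replicate 1.

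None of the VEGF ligands passed the test. Vegfa, the main vascular ligand, was at 5.46, 5.50 and 5.27 in wild type and at 5.49, 5.57, 5.41 and 5.03 in knockout. Knockout replicate 4 lay below all other arrays, and the remaining knockout arrays lay among the wild type arrays or just above them. The difference was -0.04 (SE 0.17, interval -0.43 to 0.36; exact permutation p = 0.886), and its sign turned to 0.05 with quantile normalization and to 0.0138 when arrays were scaled to the same SD. It was also above 0 without knockout replicate 4 (0.0775) or wild type replicate 2 (0.0056).

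Vegfb, a ligand of FLT1 that is abundant in muscle and fat, was at 5.88, 6.21 and 6.29 in wild type and at 6.29, 6.42, 6.38 and 6.33 in knockout. Every knockout array was at or above the highest wild type array, and wild type replicate 3 and knockout replicate 1 shared a value. The means were 6.13 ± 0.22 (SD, n = 3) and 6.36 ± 0.06 (SD, n = 4). The difference was 0.23 (SE 0.15, interval -0.11 to 0.57; exact permutation p = 0.0571), a fold of 1.17. It was 0.11 without wild type replicate 1, the lowest array.

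Vegfc, the lymphatic ligand, had the widest range of the 10 members, 1.07 log2 units. It was at 4.26, 5.18 and 4.93 in wild type and at 4.77, 5.32, 4.76 and 4.76 in knockout. Wild type replicate 1 was the lowest and knockout replicate 2 the highest of the 7 arrays. The difference was 0.11 (SE 0.26, interval -0.50 to 0.73; exact permutation p = 0.800), and its sign turned to -0.15 without wild type replicate 1 and to -0.0274 without knockout replicate 2.

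Flt1, the receptor that binds VEGF-A and VEGF-B, was at 4.32, 4.76 and 4.46 in wild type and at 4.33, 4.55, 4.61 and 4.65 in knockout. All 4 knockout arrays lay within the wild type range. The difference was 0.02 (SE 0.16, interval -0.36 to 0.40; exact permutation p = 0.914), and its sign turned to -0.07 without wild type replicate 1. It was -0.0042 without wild type replicate 3, -0.0021 without knockout replicate 3 and -0.0155 without knockout replicate 4.

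**Figure D2:**
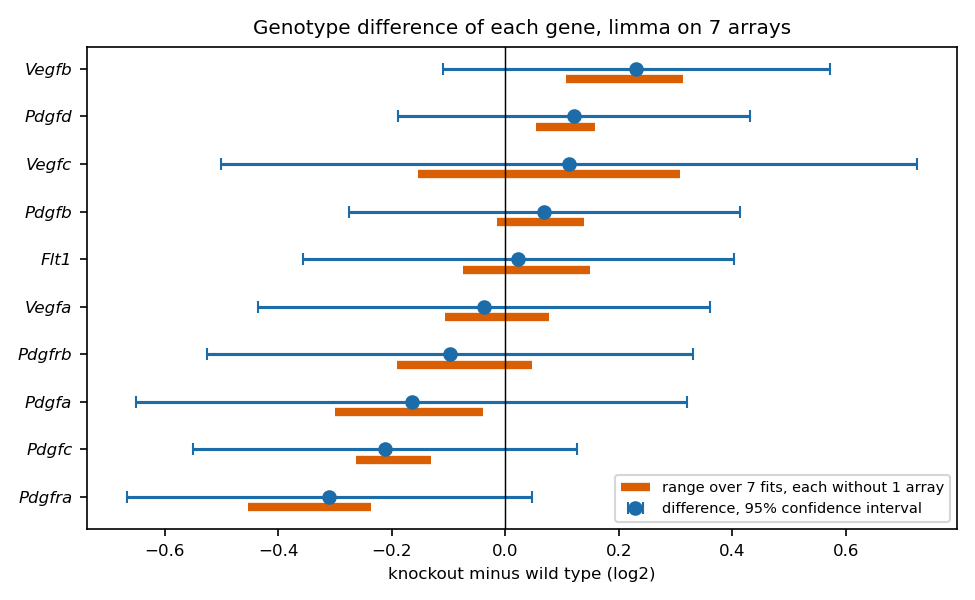
Knockout minus wild type difference in log2 units for each of the 10 genes (vertical axis), with the limma 95% confidence interval (blue) and the range over 7 fits that each left out 1 array (orange). All intervals cross 0, and Pdgfra and Vegfb lie at the ends with -0.31 and 0.23.

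The intervals show what these arrays could have missed. For Vegfc the fold interval ran from 0.707 to 1.65, the widest of the members, and for Pdgfra from 0.630 to 1.03. For Flt1 it ran from 0.781 to 1.32. The members varied less between wild type arrays than genes did in general, with a median SD of 0.22 in wild type and 0.18 in knockout, beside 0.39 and 0.19 over all genes. The wild type SD exceeded the knockout SD in 5 of the 10 members, and in 17826 of the 23185 genes. Pdgfra, Pdgfb and Pdgfd had means of 3.49, 3.60 and 3.54, close to or below the median of all values, so their signal was low.

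The other members of the VEGF receptor and ligand family comprised 3 genes higher and 3 lower in knockout, with 0 of 6 past an adjusted or unadjusted p under 0.05 in limma and a median difference of -0.03. That median was -0.12 without wild type replicate 1 and 0.10 without wild type replicate 3. Nrp2, a neuropilin that serves as co-receptor for VEGF-C, was at 5.45, 3.53 and 3.31 in wild type and at 3.28, 3.00, 3.27 and 3.31 in knockout. Its difference of -0.88 (SE 0.49) was -0.21 without wild type replicate 1, which alone was high. Without wild type replicate 3 the Nrp2 difference was -1.28 (limma unadjusted p = 0.0402), which did not hold after adjustment. In that fit 2786 of the 23185 genes had an unadjusted p under 0.05. Vegfd, a ligand of FLT4, was at 6.30, 7.05 and 5.82 in wild type and at 7.17, 6.61, 6.81 and 6.93 in knockout. Wild type replicates 1 and 3 were low and wild type replicate 2 lay among the knockout arrays, with a difference of 0.49 (SE 0.30, interval -0.21 to 1.18). It was 0.20 without wild type replicate 3 and 0.82 without wild type replicate 2. Over the fits that left out 1 array, the smallest Vegfd p was 0.0116 unadjusted and 0.658 adjusted (limma).

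Flt4, the receptor of VEGF-C and VEGF-D, was at 3.76, 3.73 and 4.17 in wild type and at 4.18, 4.01, 4.16 and 4.01 in knockout. Wild type replicates 1 and 2 were below all knockout arrays and wild type replicate 3 was among them, and the difference was 0.20 (SE 0.16). Without wild type replicate 3 it was 0.35, with an unadjusted p under 0.05 that did not hold after adjustment. In that fit 2786 of the 23185 genes had an unadjusted p under 0.05. Kdr, the main signalling receptor of VEGF-A, differed by -0.06 (SE 0.17), Nrp1, its co-receptor, by -0.08 (SE 0.19) and Pgf, placental growth factor, by 0.01 (SE 0.21). The genotypes overlapped in each of these 3 genes, and each turned its sign when 1 wild type array was left out. Kdr was 0.03 and Pgf 0.17 without wild type replicate 3, Pgf was -0.14 without wild type replicate 1, and Nrp1 was 0.10 without wild type replicate 2.

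**Figure D3:**
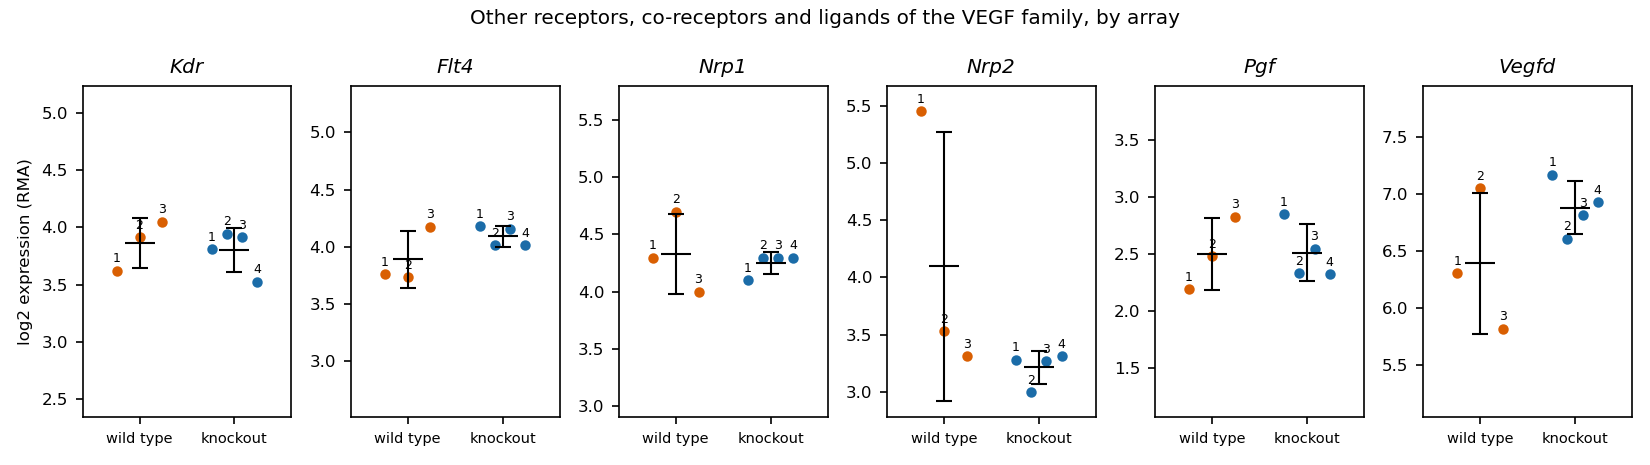
Log2 expression (RMA) of Kdr, Flt4, Nrp1, Nrp2, Pgf and Vegfd on the 3 wild type arrays (orange) and 4 knockout arrays (blue), numbered by replicate, with mean and SD as black bars. The high Nrp2 value of 5.45 belongs to wild type replicate 1 and the low Vegfd value of 5.82 to wild type replicate 3.

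Genes that act before and after these receptors did not pass the test either. Over the partners and 3 further lists, 40 of 42 genes were measured, 12 were higher and 28 lower in knockout, and 0 passed an adjusted or an unadjusted p under 0.05 in limma. Receptor signal relay genes, adaptors and enzymes that act at or downstream of such receptors, were higher in 4 and lower in 12 of 16 members. Their median was -0.14 beside 0.01 over all genes. Sos1, an activator of RAS, differed by -0.33 (SE 0.21), Akt1, a survival kinase, by -0.25 (SE 0.17) and Shc1, an adaptor, by -0.40 (SE 0.34). Without wild type replicate 1 the median of this list was 0.03, and without wild type replicate 3 it was -0.40. Without wild type replicate 1, Sos1 differed by -0.09, Akt1 by -0.16 and Shc1 by 0.02.

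Oxygen sensing genes upstream of Vegfa were higher in 2 and lower in 6 of 8 members, with a median of -0.11. Egln3, a prolyl hydroxylase that marks HIF for destruction, differed by -0.54 (SE 0.38), Arnt, the HIF partner subunit, by -0.33 (SE 0.26) and Egln1 by -0.30 (SE 0.36). The median was 0.08 without wild type replicate 1 and -0.47 without wild type replicate 3. Without wild type replicate 1, Egln3 differed by -0.17, Arnt by -0.04 and Egln1 by 0.11. Genes for ligand activation and binding were higher in 3 and lower in 7 of 10, with a median of -0.08, which was -0.20 without wild type replicate 1 and -0.0161 without wild type replicate 3. Thbs1, a matrix protein that binds growth factors, was at 4.88, 3.385 and 3.75 in wild type and at 3.32, 3.378, 3.19 and 3.27 in knockout. It differed by -0.72 (SE 0.33), or by -0.28 without wild type replicate 1. The Thbs1 genotypes narrowly did not overlap, and 1.91% of all genes did not overlap. Furin, a protease that cleaves growth factor precursors, differed by -0.52 (SE 0.28), or by -0.20 without wild type replicate 1. Sparc, a matrix protein that binds PDGF, differed by 0.97 (SE 1.11), and its value of 5.35 on wild type replicate 3 compared with 8.94 to 10.55 on the other arrays. Without that array Sparc differed by -0.56.

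Markers of the cells that make or receive these factors were set beside the members. In bulk skin, fewer cells of a type and less RNA per cell cannot be told apart. Values over all probe sets also spread most widely on wild type replicate 1 and least on wild type replicate 3. The part of this in the list levels was not tested. Fibroblast markers, for the cells that carry PDGFRA, had 5 higher and 3 lower of 8 members and a median difference of 0.18. That median was 0.39 without wild type replicate 1 and turned to -0.33 without wild type replicate 3. Their mean log2 level ran from 5.31 to 6.95 in wild type and from 6.07 to 6.86 in knockout, and was lowest on wild type replicate 3, where Pdgfra was also at its knockout value. The part of this in the Pdgfra difference was not tested. Pericyte and mural markers had 6 higher and 2 lower of 8 and a median of 0.12, which turned to -0.0283 without wild type replicate 1 and was 0.07 without wild type replicate 3. They had mean levels from 4.71 to 5.04 in wild type and from 4.90 to 5.22 in knockout. They were highest on knockout replicate 4, the array with the lowest Pdgfrb.

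Blood endothelial markers had 5 higher and 4 lower of 9, a median of 0.19 and mean levels of 4.06 to 4.36 in wild type and 4.203 to 4.489 in knockout. The median was 0.18 without wild type replicate 1 and 0.0433 without wild type replicate 3. Cdh5, the cadherin of endothelial junctions, differed by 0.61 (SE 0.29) without passing the test. Lymphatic endothelial markers had 3 higher and 2 lower of 5 and a median of 0.01, with mean levels of 4.12 to 4.16 and 3.93 to 4.28. That median was 0.0147 without wild type replicate 1 and -0.0007 without wild type replicate 3. Skeletal muscle markers were higher in 8 of 8 members (median 0.63), with mean levels of 7.97 to 9.64 in wild type and 9.34 to 9.95 in knockout. The median was 0.88 without wild type replicate 1 and 0.16 without wild type replicate 3. The muscle level was 9.25 on wild type replicate 1, which had the lowest Vegfb, and 7.97 on wild type replicate 3. Adipocyte markers had 5 higher and 1 lower of 6 and a median of 0.33, with mean levels of 5.75 to 6.62 and 6.22 to 6.91. Their median was 0.28 without wild type replicate 1 and 0.11 without wild type replicate 3.

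Hair follicle markers were lower in 10 of 10 members (median -0.99), with mean levels of 3.97 to 7.39 in wild type and 3.45 to 4.48 in knockout. The value of 7.39 was on wild type replicate 1, which also had the highest Pdgfa, Pdgfrb and Nrp2 and the lowest Vegfb, Vegfc and Flt1. Without that array the list's median was -0.14, and without wild type replicate 3 it was -1.46. Epidermal keratinocyte markers had 3 higher and 5 lower of 8, a median of -0.03 and mean levels of 6.29 to 8.41 and 7.18 to 7.41. Their median was 0.46 without wild type replicate 1 and -0.49 without wild type replicate 3. No marker in these lists passed an adjusted p under 0.05 in limma. The part of these markers in the members' values was not tested.

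**Figure D4:**
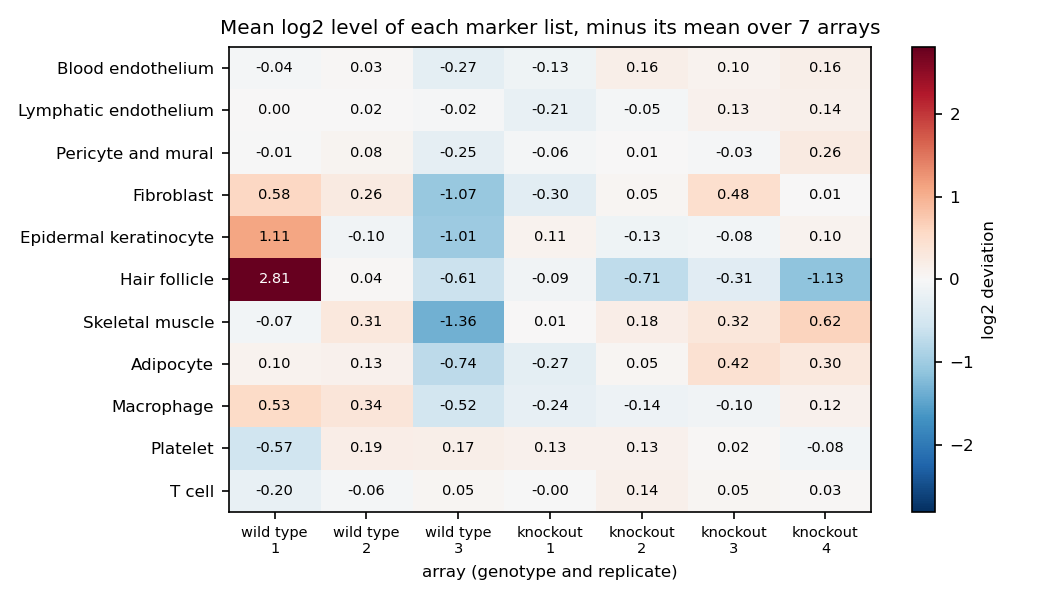
Mean log2 level of 11 marker lists (rows) on each of the 7 arrays (columns), minus the list's mean over the arrays, coloured from low (blue) to high (red). Hair follicle markers stand high on wild type replicate 1, and fibroblast, keratinocyte, muscle, adipocyte and macrophage markers stand low on wild type replicate 3.

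The members' levels ran both parallel and opposite to each other. Over the 7 arrays, 20 of the 45 pairs of members correlated above 0 and 25 below it, with Pearson's r from -0.85 to 0.71. Pdgfrb and Flt1 ran opposite to each other (r = -0.85, exact permutation p = 0.0183; Spearman's rho = -0.85, exact permutation p = 0.0238). Without wild type replicate 1 and knockout replicate 4, the arrays farthest from the median of Pdgfrb, r was -0.86, and without wild type replicates 1 and 3 it was -0.81. Pdgfra and Vegfb also ran opposite (r = -0.79, exact permutation p = 0.0286; rho = -0.68, exact permutation p = 0.0762). Pdgfra and Vegfb also had the largest genotype differences of the members, in opposite directions, and r pools the genotypes. Without wild type replicates 1 and 2 r was 0.11. All Pdgfra values left were then identical except that of knockout replicate 4, so this r cannot show what the relation rests on. Without wild type replicates 1 and 3 r was -0.76. The ligands Vegfb and Vegfc had r = 0.71 (exact permutation p = 0.0968; rho = 0.33, exact permutation p = 0.474), and this rested on wild type replicate 1 and knockout replicate 2, without which r was -0.87. Without wild type replicates 1 and 3 it was 0.0186. After Benjamini-Hochberg adjustment over the 45 pairs, 0 relations passed, with a smallest adjusted p of 0.643 for Pearson's r and of 0.815 for Spearman's rho.

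**Figure D5:**
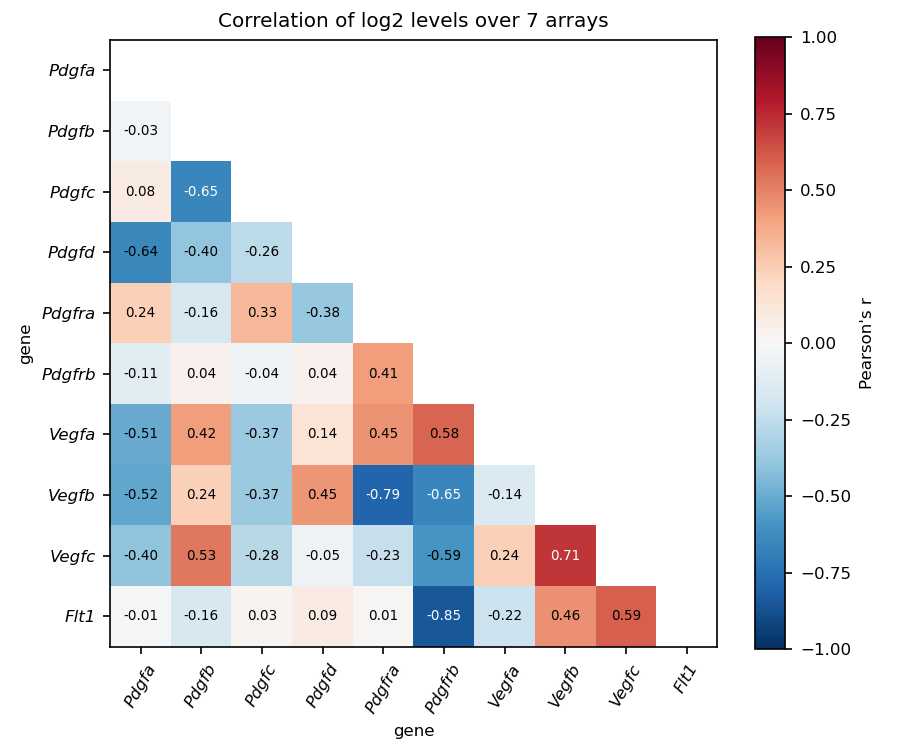
Pearson's r between the log2 levels of each pair of the 10 genes over the 7 arrays, blue for opposite and red for parallel variation. The strongest cell is Pdgfrb with Flt1 at -0.85, and the highest is Vegfb with Vegfc at 0.71.

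The genes whose levels followed each member most closely over the 7 arrays were found for description, without a test. For Pdgfra they were Gla (Pearson's r = 0.98) and Kremen1 (r = 0.98), and for Vegfb Pom121l12 (r = 0.99) and Rai2 (r = 0.98). Flt1 was followed by Tlr8 (r = 0.96) and Ufsp1 (r = 0.96). Pdgfrb was followed by Cldn8 (r = 0.99) and Srxn1 (r = 0.99), and Pdgfb by Acvrl1 (r = 0.99) and Alpl (r = 0.97). For Pdgfa the closest were Haus8 (r = 0.98) and Spg11 (r = 0.97), for Pdgfc Cbx6 (r = 0.94) and Per2 (r = 0.93), and for Pdgfd Spata4 (r = 0.99) and Capn10 (r = 0.99). Vegfa was followed by Snx29 (r = 0.98) and AI839979 (r = 0.96), and Vegfc by Cd27 (r = 0.98) and Pde6b (r = 0.98). These are the best of all genes searched, over 7 points, and no member was the closest match of another.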

How the data were processed

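Total RNA from lesional skin was labelled as biotinylated whole-transcript sense target and hybridised to 1 Affymetrix array per sample, 7 in all, per the labels' protocols. The authors deposited log2 expression made by RMA, per the submitters' processing notes. Its version, the definition of the probe sets and the genome build are not given in the sources used here. Of 25206 probe sets in the table, the platform annotation named 23185 with 1 symbol and 0 with several, and 2021 were unnamed here. All 23185 were matched by Entrez number to RefSeq (assembly GRCm38.p6), and no gene had more than 1 probe set.

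Values were used as deposited, with no filter. The genotype comparison used limma 3.58.1 (R 4.3.3; lmFit and eBayes, 2 groups, all 7 arrays, two-sided), with Benjamini-Hochberg adjustment over the 23185 genes at 0.05. The fit was tested on simulated data in which a gene had the same spread on every array, unlike the arrays here. Exact permutation tests used all 35 splits of the arrays, or all 5040 orders for a correlation. The permutation p printed for each member is an alternative to the limma test. The design fixed for correlations between members planned r with no p, and their permutation p-values were added after the data were seen. Where a single array was left out of a group, limma pooled the spread over the rest. Promoter windows came from RefSeq, and figures were drawn with matplotlib 3.10.9.

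The 10 members and all lists were chosen with earlier results of these data known. The text names all members, up to 3 genes of each list with the smallest p, and the 2 genes that correlate most with each member, passing over predicted genes, small RNAs, olfactory or vomeronasal receptors and immunoglobulin or T cell receptor segments. Hbb-b1, Kit, Tnfsf4, Cd3e, Kdr, Nrp1 and Pgf are named outside that rule, the last 3 so that the whole family is shown. Of the genes in the lists, 6 were not analysed here. A planned search of protein sequences was not run. Precision is limited by how few arrays there are.

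The alternatives tried were robust moderation with an intensity trend, filters on dim genes, quantile normalization, median centring with and without scaling, array weights, blocks by replicate number, code number and code suffix, all probe sets, and arrays left out. The correlation of same-numbered arrays' deviations from their group means was -0.09, -0.14 and 0.03. The wild type arrays that stand apart weigh on these values, so they cannot show whether the arrays were paired.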

Additional observations from a re-analysis of the deposited data

Results flagged for a closer look

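Among the 31 sets of 4 knockout values examined (members, family partners and list means), 5 held an array far from the others by Dixon's gap, a rule that chance meets in about 1 of 20 sets. Pdgfra on knockout replicate 4 was at 3.29, and the other knockout arrays all had 3.38. Vegfc on knockout replicate 2 was at 5.32, against 4.76 to 4.77 on the others. Nrp1 on knockout replicate 1 was at 4.10, against 4.30 on each of the others, and Nrp2 on knockout replicate 2 was at 3.00, against 3.27 to 3.31. The mean of the oxygen sensing genes was 4.67 on knockout replicate 1, against 4.42 to 4.46. For Pdgfra and Nrp1 the other 3 values were identical, so any departure meets the rule.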

How the results depend on the processing

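With the trend, the filters, all probe sets and the permutation test the difference itself stays the same by construction, so its direction could not change. The replicate block gave the same differences as leaving out knockout replicate 4, the only array with that replicate number. Its differences are therefore not a separate result, though they are counted here. Over all alternatives other than leaving out single arrays, these included, the members' differences kept their direction and side of the threshold in 113 of 127 values. Those that turned were Pdgfa without wild type arrays 1 and 3 (0.008), Pdgfrb with array weights (0.10) and without those arrays (0.0895), Vegfa with quantile normalization (0.05), scaling (0.0138) and the replicate block (0.0775), Vegfc with array weights (-0.26) and without those arrays (-0.28), and Flt1 with array weights (-0.23), the replicate block (-0.0155), the code suffix (-0.0111) and without those arrays (-0.23). With array weights Pdgfra (-0.45, limma adjusted p = 0.0064) and Pdgfc (-0.26, limma adjusted p = 0.0486) passed, 4 members had an unadjusted p under 0.05, and 4032 genes passed (7364 unadjusted), but the weights had not converged and gave wild type replicate 2 a weight of 75.4 against 0.106 and 0.109 for the other wild type arrays. The adjusted p over the other alternatives reached 1 for each of these genes. Without wild type arrays 1 and 3, wild type replicate 2 alone was left in its group, so the spread came from the knockout arrays only. The Pdgfra difference was then -0.46.

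Over all genes, 1 passed and 436 had an unadjusted p under 0.05. None passed with the trend, quantile normalization, median centring, the replicate block, the code suffix, all probe sets or without wild type arrays 1 and 3 (0 in each). Unadjusted counts were 219 without the dimmest 50%, 716 with quantile normalization, 251 with the replicate block, 278 with the code suffix and 2024 without wild type arrays 1 and 3. The members' median was 0.0581 with quantile normalization, -0.0544 with array weights, 0.0339 with the replicate block and -0.0571 without those arrays.

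With single arrays left out, 60 of 70 member values kept their direction. The ranges were -0.301 to -0.0399 for Pdgfa, -0.0138 to 0.138 for Pdgfb, -0.191 to 0.0464 for Pdgfrb, -0.106 to 0.0775 for Vegfa, -0.154 to 0.308 for Vegfc, -0.0746 to 0.149 for Flt1, 0 to 1 for members with an unadjusted p under 0.05, -0.0618 to 0.0373 for the members' median, 0 to 0 for genes passed and 249 to 2786 for unadjusted calls. Pdgfb, Pdgfd and Pdgfra fell among the dimmest 50% of genes, so that filter gave them no value. The cause of these changes was not tested.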

Other observations

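Pdgfra lies near Kit and Kdr, which also encode receptor tyrosine kinases, in the RefSeq gene order. Kit, the stem cell factor receptor of mast cells and melanocytes, was at 5.38, 4.21 and 4.62 in wild type and at 4.22, 4.56, 4.12 and 4.04 in knockout, a difference of -0.50 (SE 0.29, interval -1.17 to 0.17; limma adjusted p = 0.9995). Its highest value was on wild type replicate 1, whereas Pdgfra was equally high on wild type replicates 1 and 2. Kit was chosen for its position, after its values were seen.

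Leukocyte and platelet markers were also examined, since macrophages and platelets release PDGF. Macrophage markers were higher in 1 and lower in 5 of 6 members, with a median difference of -0.26 that was -0.03 without wild type replicate 1 and -0.53 without wild type replicate 3. Itgam, an integrin of myeloid cells, was at 5.25, 5.50 and 4.80 in wild type and at 4.37, 4.80, 4.44 and 4.92 in knockout. The Itgam difference was -0.55 (SE 0.22; limma unadjusted p = 0.0426, adjusted p = 0.9995). T cell markers were higher in 3 and lower in 2 of 5, with a median of 0.14 that was 0.0015 without wild type replicate 1 and 0.09 without wild type replicate 3. Cd3d, a T cell receptor subunit, was at 2.86, 3.01 and 2.66 in wild type and at 3.61, 3.28, 3.15 and 3.64 in knockout. The Cd3d difference was 0.58 (SE 0.18; limma unadjusted p = 0.0134, adjusted p = 0.9995). An unadjusted p under 0.05 was found in 1.88% of all genes. The Cd3d genotypes did not overlap, which was the case for 1.91% of all genes. Its mean of 3.17 lay below the median of all values, 3.60, so its signal was low. Of the other genes of that complex, Cd3g was higher by 0.22 (SE 0.15), also without overlap. Cd3e, whose genotypes overlapped, differed by -0.09 (SE 0.25). Cd4, with overlapping genotypes too, differed by -0.24 (SE 0.18). Platelet markers were higher in 4 of 4 members, with a median of 0.13 that was -0.15 without wild type replicate 1 and 0.27 without wild type replicate 3.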
